A study of Mus musculus with 54 samples.

Results

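The 18 cerebellum libraries of Mbd5+/GT and WT mice were ranked by Dbp, a transcription factor gene at the output of the circadian clock, and the 6 libraries with the highest Dbp were set against the 6 with the lowest. The libraries were chosen by raw Dbp CPM (counts relative to the total on genes), with the spike-in RNAs left out and both genotypes pooled, so 12 of the 54 libraries of the series were used in cerebellum. The same mice's cortex libraries (12) and striatum libraries (12) were not used for the ranking, and all tests were made there. The cerebellum values of the chosen libraries are given as a description, with no test. The lowest 6 libraries ran from 39.2 to 50.8 CPM of Dbp and the highest 6 from 67.7 to 149. The libraries just outside these limits had 52.5 and 64.1, and the 6 libraries between ran from 52.5 to 64.1.

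The clock of mammalian cells is a loop of transcription factors. BMAL1 (Arntl) pairs with CLOCK or NPAS2 and activates genes through E-box sequences, among them the Per, Cry, Rev-erb (Nr1d1, Nr1d2) and Dec (Bhlhe40, Bhlhe41) genes and Ciart, whose products repress the loop in turn. Dbp, Tef and Hlf are PAR bZIP factors that carry the rhythm to D-box genes, Nfil3 opposes them there, and in most tissues Dbp is among the transcripts with the widest daily swing.

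All mice were 8 weeks old and had a C57BL/6 background, and each gave 1 library per region. Mbd5+/GT mice are heterozygous for a gene trap inserted in an intron of Mbd5, which leaves a hypomorphic allele, and WT littermates were the controls. The mice were kept under 12 h of light and 12 h of dark. The labels state that each tissue type was collected on 1 day, and the hour for each mouse was not given in the sources used here. The 6 mice with high Dbp were 4 Mbd5+/GT and 2 WT mice, 5 females and 1 male, of which 3 came from litter 1, 1 from litter 2 and 2 from litter 3. The 6 mice with low Dbp were 1 Mbd5+/GT and 5 WT mice, 3 females and 3 males, of which 2 came from litter 1 and 4 from litter 3. Genotype, sex and litter were thus unevenly spread over the classes. The trapped gene was lower at the median in Mbd5+/GT mice in each region. In cortex the median of Mbd5 was 44.5 CPM in 10 Mbd5+/GT and 66.0 CPM in 8 WT mice, in striatum 37.3 and 48.1 CPM, and in cerebellum 40.6 and 55.6 CPM. Unless called raw, CPM here are library-scaled counts after TMM normalisation within a region.

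The cerebellum library of M755, in the high class, stood apart before any comparison. Its summed level of 8 granule cell genes was 222 CPM, where the other 5 high libraries had 4848 to 6038 CPM. Its 6 Purkinje cell genes summed to 461 CPM against 7251 to 8812 CPM in those 5. It held 260 CPM of 8 hindbrain Hox genes, where the other high libraries had at most 0.590 CPM, and 32003 CPM of 6 oligodendrocyte genes against 5396 to 7958 CPM. The granule and Purkinje cell genes that define cerebellum were therefore nearly absent from a library labelled cerebellum. In the low class, the library of M754 had 1944 CPM of granule cell genes and 125 CPM of Hox genes, and that of M761 had 4040 and 48.4 CPM. The library of M756, between the classes, had 4951 and 43.9 CPM. It was kept in the correlations given without mice M754, M755 and M761. Cerebellum differences of listed genes that moved by over 1.5 times or changed sign without M755 are given both ways. In striatum, the same mice M754 and M761 had the lowest summed levels of 5 striatal neuron genes, 110 and 306 CPM, against a median of 1894 CPM over 18 libraries. Totals on genes ran from 25295973 to 49027399 counts per library, with a median of 29073866.

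The promoter windows of 3 clock genes with positive differences in all 3 regions are shown first, since those of Ciart and Bhlhe41 hold the E-box letters and that of Per3 holds the D-box letters. The sequences are RefSeq windows of build GRCm38.p6, 5′ to 3′ on the gene's strand, and run from 250 bases before the annotated start towards it, cut where the GENCODE gene model begins. Capitals mark the E-box CACGTG in Ciart and Bhlhe41 and the D-box TTANGTAA in Per3. The windows are chr3:95882252-95882478 on the minus strand (Ciart, 227 bases), chr6:145865559-145865670 on the minus strand (Bhlhe41, 112 bases) and chr4:151044666-151044915 on the minus strand (Per3, 250 bases).
Ciart: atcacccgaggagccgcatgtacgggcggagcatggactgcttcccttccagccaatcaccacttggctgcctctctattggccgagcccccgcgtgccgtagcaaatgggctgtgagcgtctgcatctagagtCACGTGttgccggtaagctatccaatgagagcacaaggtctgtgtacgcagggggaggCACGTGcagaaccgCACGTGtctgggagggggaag
Bhlhe41: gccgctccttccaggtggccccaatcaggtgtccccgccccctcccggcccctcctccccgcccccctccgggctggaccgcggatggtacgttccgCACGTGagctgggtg
Per3: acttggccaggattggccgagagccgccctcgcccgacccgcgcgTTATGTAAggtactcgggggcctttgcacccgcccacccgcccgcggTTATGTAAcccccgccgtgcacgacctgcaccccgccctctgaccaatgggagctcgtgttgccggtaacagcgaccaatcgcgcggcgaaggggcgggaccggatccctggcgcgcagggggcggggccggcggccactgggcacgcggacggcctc
The E-box is its own reverse complement, and the D-box was searched as TTANGTAA and TTACNTAA. Ciart held 3 copies of CACGTG, 116, 58 and 44 bases before its start, and Bhlhe41 held 1, 153 bases before it. In windows of 300 bases (250 before and 50 after a start), CACGTG was found in 7.15% of 32851 promoters, and 0.594% held 2 or more copies. Among the 31 clock genes described below, 25 were matched to the table by symbol, with 34 promoters, and 6 of them held the E-box (Bhlhe41, Ciart, Cry1, Pdxk, Per1 and Tef). The D-box was found in 2.32% of all promoters and in 2 clock genes, Per3 and Rorb. A half-site of the ROR and REV-ERB receptors, AGGTCA or TGACCT, was found in 16.3% of all promoters and in 7 clock genes (Arntl, Clock, Nampt, Nfil3, Nr1d2, Pdxk and Per1). None of the 3 motifs was found for Dbp itself. This cannot tell a window without these letters from a gene that was not matched to a window.

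Dbp (ENSMUSG00000059824) is at 45705088 to 45710203 on chromosome 7 (GRCm38, plus strand). In cerebellum its level was 98.3 ± 32.9 CPM (SD, n = 6) in the high class and 45.8 ± 3.77 CPM (SD, n = 6) in the low class, the values that chose the mice. The log2 difference there was 1.10, and 1.19 without M755. The high class was uneven, with 145 CPM in M759 and 134 CPM in M758 and between 68.4 and 89.4 CPM in the other 4.

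In cortex, which had no part in the ranking, Dbp ran from 62.4 to 114 CPM in the mice with high cerebellar Dbp (median 82.6) and from 45.2 to 74.1 CPM in those with low (median 53.2). All 6 high mice lay above the low mean, and 2 of them, M758 and M766, lay below the highest low mouse, M761. The log2 fold change was 0.65 (SE 0.16, adjusted p = 0.35 over 18661 genes, edgeR). For Dbp alone, an exact 2-sided permutation test over the 924 splits of 12 mice into 6 and 6 gave a difference of 0.63 on the log2 scale and p = 0.00649, where 0.00216 is the smallest p this design allows. Without the mice M754, M755 and M761 the difference was 0.75 (exact permutation p = 0.0159).

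In striatum, Dbp ran from 126 to 220 CPM in the high mice (median 140) and from 70.9 to 194 CPM in the low mice (median 97.6). All 6 high mice again lay above the low mean, but 2 low mice, M752 with 194 CPM and M751 with 136 CPM, reached into the high range. The labels of both of these striatum libraries hold the letters rep, whose meaning is not given in the sources used here. The log2 fold change was 0.46 (SE 0.23, adjusted p = 0.48 over 18546 genes, edgeR), and the difference of 0.52 gave p = 0.0584 by the exact permutation test. Without the mice M754, M755 and M761 it was 0.35 (exact permutation p = 0.246). Without these 2 libraries labelled rep, the log2 fold change was 0.84 (adjusted p = 0.56, edgeR).

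**Figure D1:**
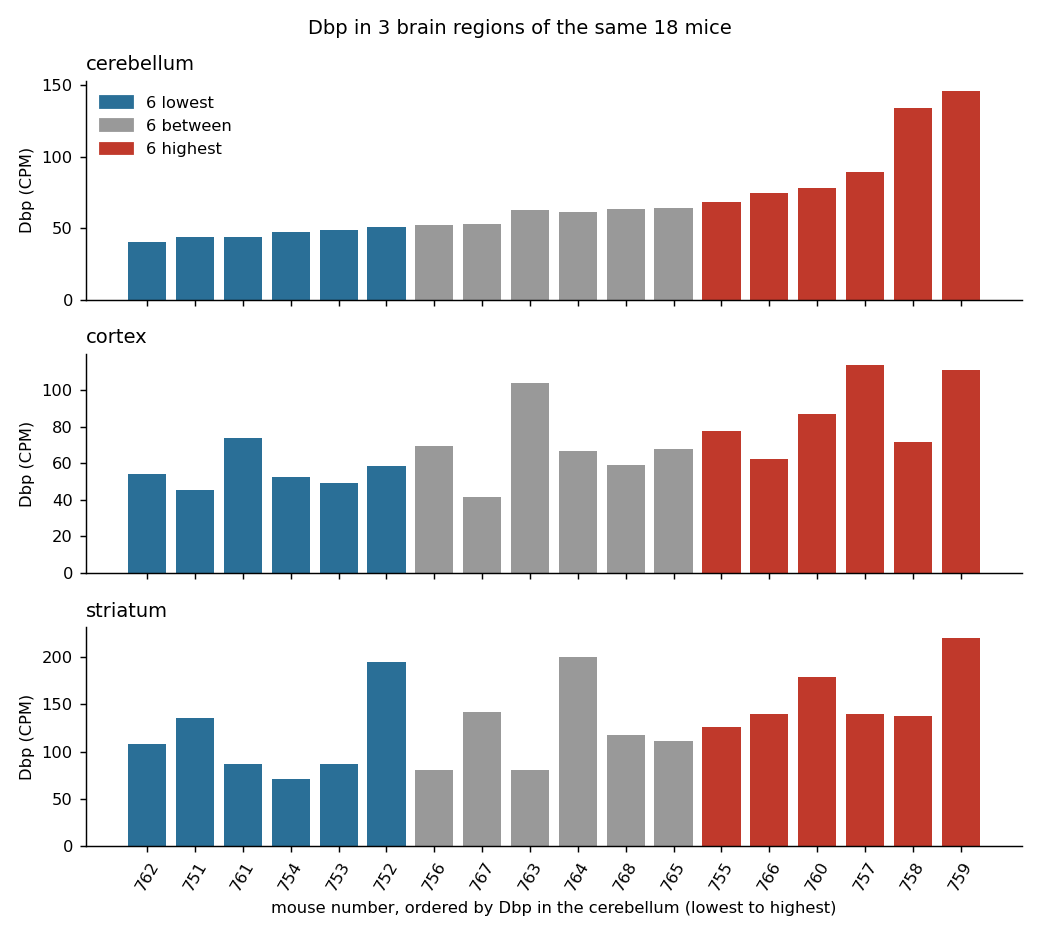
Dbp level (CPM after TMM normalisation, bars) in each of the 18 mice in cerebellum, cortex and striatum, with the mice in the order of their cerebellar Dbp in all 3 panels. The 6 high mice ran from 62.4 to 114 CPM in cortex and the 6 low mice from 45.2 to 74.1 CPM, while in striatum 2 low mice (M751 and M752) reached 136 and 194 CPM.

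Within parts of the cohort the Dbp difference kept its sign in both regions. Among WT mice (2 high, 5 low) it was 1.00 in cortex (exact permutation p = 0.0476, the smallest that 21 splits allow) and 0.65 in striatum (exact permutation p = 0.19). Among Mbd5+/GT mice (4 high, 1 low) it was 0.58 and 0.73, where no p under 0.2 is possible in an exact test. In females (5 high, 3 low) it was 0.61 in cortex (exact permutation p = 0.0536) and 0.84 in striatum (exact permutation p = 0.0179, the smallest that 56 splits allow). In males (1 high, 3 low) it was 0.30 and 0.085. In litter 1 (3 high, 2 low) it was 0.49 and 0.85, and in litter 3 (2 high, 4 low) 0.88 and 0.23, with no p under 0.05 possible in either litter. Litter 2 held no low mouse. All mice of litter 1 were female and all of litter 2 male, and only litter 3 held both sexes. The parts by sex and by litter thus share mice and are not separate evidence.

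Over all 18 mice, including the 6 between the classes, Dbp of the cerebellum correlated with Dbp of the cortex (Pearson's r = 0.65, permutation p = 0.00331, adjusted 0.00993 over 3 pairs of regions; Spearman's rho = 0.66, permutation p = 0.00374, adjusted 0.0112). Without mice M758 and M759, the farthest from the median, r was 0.68. Within litter 1 (n = 6) it was 0.55 and within litter 3 (n = 7) 0.97. With striatum, r was 0.51 (permutation p = 0.0285, adjusted 0.0427) and rho 0.51 (permutation p = 0.0332, adjusted 0.0499). That relation was 0.40 without the same 2 mice, 0.74 in litter 1 and 0.30 in litter 3. By sex, r with cortex was 0.63 in 10 females and 0.72 in 8 males, and r with striatum 0.78 and 0.074. By genotype, r with cortex was 0.38 in 10 Mbd5+/GT and 0.86 in 8 WT mice, and r with striatum 0.38 and 0.63. Between cortex and striatum r was 0.20 (permutation p = 0.429, adjusted 0.429) and rho 0.14 (permutation p = 0.567, adjusted 0.567), and without mice M757 and M759 r was -0.052. Cerebellar Dbp thus correlated with Dbp of each other region over the 18 mice, unevenly between sexes and genotypes, and these differences in r were not tested.

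**Figure D2:**
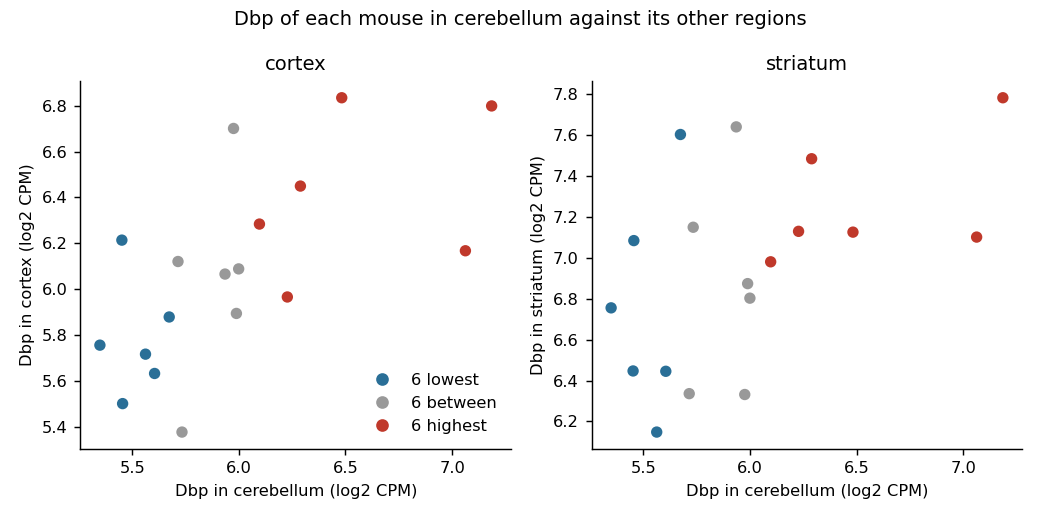
Dbp of each mouse in cerebellum (x axis, log2 CPM) against its Dbp in cortex and in striatum (y axes, log2 CPM), 1 point per mouse and 18 mice in each panel. Pearson's r was 0.65 with cortex and 0.51 with striatum. In the striatum panel some low and middle mice lay as high as the high class.

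Across the genome no gene passed an adjusted p of 0.05 in either region by edgeR's quasi-likelihood test, 0 of 18661 in cortex (0.0% called) and 0 of 18546 in striatum (0.0% called). At an unadjusted p under 0.05, 4.25% of all cortex genes were higher and 5.67% lower in the high mice, and 6.15% and 4.56% in striatum. DESeq2 (Wald test, Benjamini-Hochberg) called 66 genes in cortex and 57 in striatum. The 4 lists of clock genes with 31 members were followed, and all 31 passed the filter on low counts in each region. None passed the adjusted threshold (0 of 31 in cortex and in striatum). At the unadjusted level 3 were higher and 2 lower in cortex, and 9 were higher and 1 lower in striatum. DESeq2 called 5 clock members in cortex and 3 in striatum. The values below are therefore sizes with their errors, and none of these genes was called by edgeR. The p-values measure the spread between these mice.

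**Figure D3:**
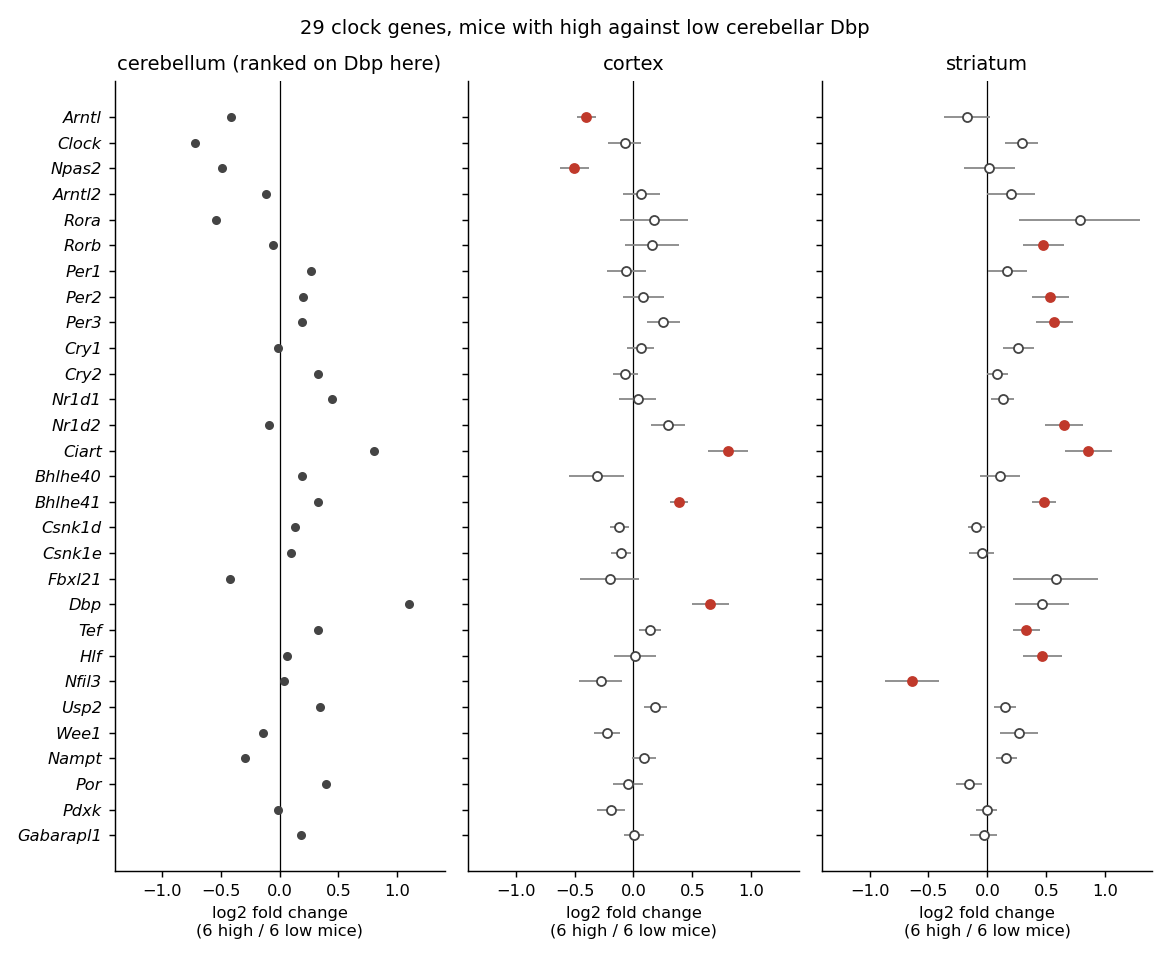
Log2 fold change (x axis) of 29 clock genes in mice with high against low cerebellar Dbp, in cerebellum (no error bars, since the mice were ranked there), cortex and striatum (bars are standard errors). Filled red points had an unadjusted p under 0.05, 5 in cortex and 9 in striatum; Ciart and Bhlhe41 were so in both, and no point passed the adjusted threshold.

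Ciart (ENSMUSG00000038550, minus strand of chromosome 3, 95878503 to 95882251), which encodes CHRONO, a repressor that binds BMAL1, had the pattern most like that of Dbp. In cerebellum it ran from 15.5 to 33.7 CPM in the high class (median 25.8) and from 12.9 to 15.3 CPM in the low class (median 13.6), so the classes did not overlap. It was 1 of 2 clock genes of which this held, the other being Dbp itself, where 0.143% of all genes were higher and 0.0881% lower without overlap. Over the 18 cerebellum libraries its correlation with Dbp, 0.90, was the highest, after Dbp itself, among 11713 genes with at least 5 CPM. In cortex Ciart ran from 13.7 to 32.3 CPM in the high mice (median 27.1) and from 13.0 to 17.3 CPM in the low mice (median 15.1), with a log2 fold change of 0.80 (SE 0.17, adjusted p = 0.27, edgeR). In striatum it ran from 16.6 to 42.8 CPM (median 29.4) against 12.9 to 19.6 CPM (median 16.9), with a log2 fold change of 0.86 (SE 0.20, adjusted p = 0.45, edgeR). In both regions the same 5 of 6 high mice lay above every low mouse. The sixth, M766, lay at the low level in each region at 15.5 CPM (cerebellum), 13.7 CPM (cortex) and 16.6 CPM (striatum), although its cerebellar Dbp of 74.9 CPM placed it in the high class. M763, of the middle class, had 29.6 CPM of Ciart and 104 CPM of Dbp in cortex, as high as the high mice there. Without M766 Ciart was called in cortex (log2 fold change 0.94, adjusted p = 0.00994, edgeR), as it was with litter as a covariate (0.88, adjusted p = 0.0209, edgeR). M766 was singled out here by its low Ciart, so the call without it is no separate evidence. Leaving out any other single mouse gave an adjusted p between 0.14 and 0.58 (edgeR).

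Bhlhe41 (ENSMUSG00000030256, minus strand of chromosome 6, 145858243 to 145865558) encodes DEC2, which competes for E-boxes. In cortex it ran from 37.0 to 46.9 CPM in the high mice and from 29.7 to 37.8 CPM in the low mice (medians 43.0 and 32.1), and in striatum from 45.9 to 61.6 CPM and from 34.8 to 46.6 CPM (medians 57.8 and 37.7). In each region 5 of 6 high mice lay above every low mouse. Its log2 fold change was 0.39 in cortex (SE 0.078, adjusted p = 0.27, edgeR) and 0.48 in striatum (SE 0.10, adjusted p = 0.45, edgeR), and the difference in cerebellum was 0.33. There the classes overlapped, with 58.4 CPM in M754 and 48.2 CPM in M761 of the low class, and without mice M754, M755 and M761 they did not. With those 5 against 4 libraries, however, 2.08% of all genes were higher and 2.20% lower without overlap, which held for 4 and 1 of the 31 clock genes. Its paralogue Bhlhe40 had 0.19, -0.31 (adjusted p = 0.69, edgeR) and 0.11 (adjusted p = 0.84, edgeR) in cerebellum, cortex and striatum.

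**Figure D4:**
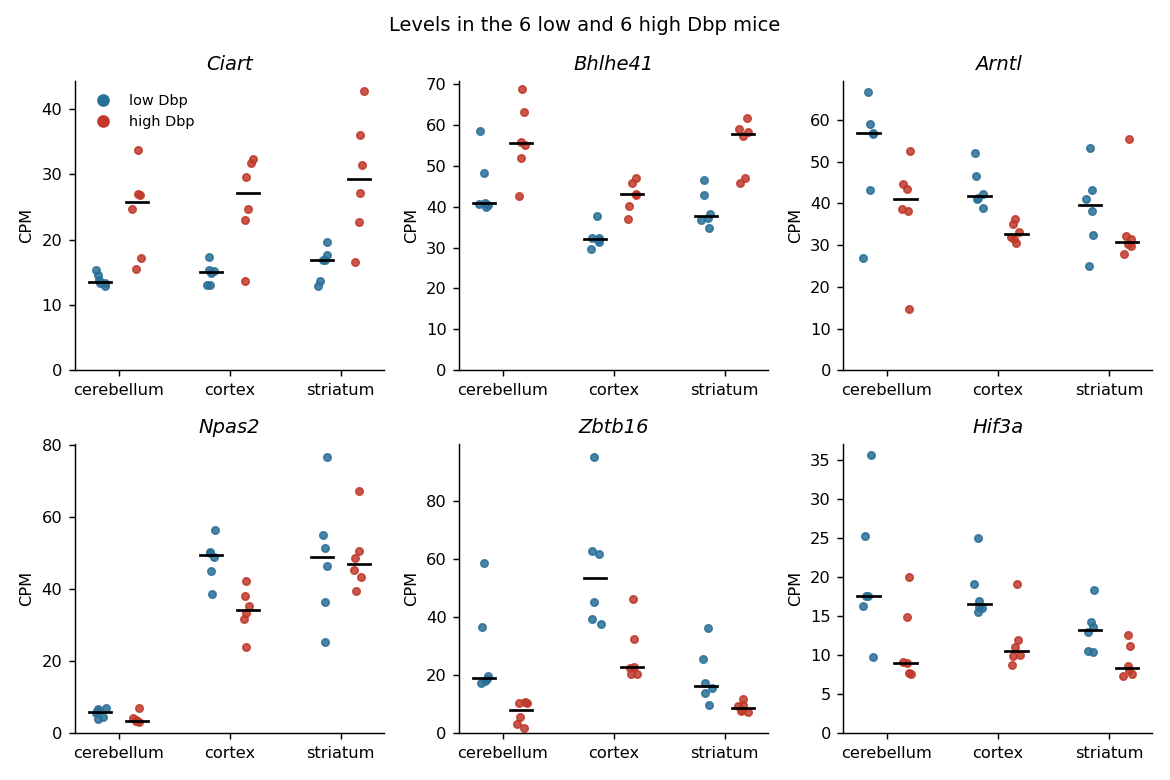
Levels (CPM after TMM normalisation, 1 point per mouse) of Ciart, Bhlhe41, Arntl, Npas2, Zbtb16 and Hif3a in the 6 low and the 6 high Dbp mice in 3 regions; black lines are medians. In cortex the 6 high mice (30.6 to 36.2 CPM) lay below the 6 low mice (38.9 to 52.0 CPM) for Arntl, and in cerebellum the classes did not overlap for Ciart or Zbtb16.

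The other repressors are given by region, and their sizes were not shown to differ between striatum and cortex (interaction term, below). Per2 and Per3, the period genes whose proteins inhibit CLOCK and BMAL1, had log2 fold changes of 0.53 and 0.57 in striatum (SE 0.16 for both, adjusted p = 0.45 for both, edgeR). Per2 ran there from 44.5 to 85.3 CPM in the high and from 33.9 to 57.6 CPM in the low mice, and Per3 from 45.2 to 84.98 CPM and from 34.4 to 60.4 CPM, so the groups overlapped. In cortex the values were 0.083 and 0.25, and in cerebellum the differences were 0.20 (0.35 without M755) and 0.19. Nr1d2, which encodes the heme receptor REV-ERB beta, had 0.65 in striatum (SE 0.16, adjusted p = 0.45, edgeR), with 100 to 174 CPM against 71.3 to 115 CPM, while the values were 0.29 in cortex and -0.089 in cerebellum (0.010 without M755). Its paralogue Nr1d1 differed by 0.45 in cerebellum (0.58 without M755) and its correlation with Dbp there was 0.70, while the log2 fold change was 0.034 in cortex and 0.13 in striatum. Cry2, a cryptochrome repressor, likewise differed by 0.33 in cerebellum, with -0.070 in cortex and 0.085 in striatum. Per1 had 0.27, -0.059 and 0.17 in the order cerebellum, cortex and striatum, and Cry1 had -0.015, 0.062 and 0.26. Without M755 the cerebellum differences of Per1 and Cry1 were 0.42 and 0.17. The kinase genes Csnk1d and Csnk1e had values between -0.12 and 0.13 in all 3 regions. Fbxl21 had -0.42, -0.20 and 0.58.

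Over the 14 genes of the repressing limb, the median log2 difference in cerebellum was 0.19, with 0.040 in cortex and 0.24 in striatum, beside 0.013, 0.0048 and -0.035 over all genes. In cortex 2 of 14 (Ciart and Bhlhe41) were higher at the unadjusted level and 0 lower, and in striatum 6 were higher (Per2, Per3, Nr1d2, Ciart and Bhlhe41 among them) and 0 lower. Of all genes, 4.25% were higher and 5.67% lower at that level in cortex, and 6.15% and 4.56% in striatum.

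In the activating limb, the 2 genes past the unadjusted level in cortex were both lower. Arntl (ENSMUSG00000055116, plus strand of chromosome 7, 113207465 to 113314126), which encodes BMAL1, ran from 30.6 to 36.2 CPM in the high mice (median 32.6) and from 38.9 to 52.0 CPM in the low mice (median 41.8). The groups did not overlap, which held for 1 of 31 clock genes in cortex, where 0.209% of all genes were higher and 0.171% lower without overlap. The log2 fold change was -0.40 (SE 0.080, adjusted p = 0.27, edgeR). In striatum the median was 30.8 CPM in the high and 39.6 CPM in the low mice, but M766, of the high class, had the highest value of the 12 with 55.4 CPM, and the log2 fold change was -0.17 (SE 0.19, adjusted p = 0.75, edgeR). In cerebellum the difference was -0.41, or -0.24 without M755, whose library had 14.6 CPM. Without mice M754, M755 and M761 it was -0.45, the classes no longer overlapped (as for 2.20% of all genes on the low side), and the correlation of Arntl with Dbp went from -0.27 over 18 libraries to -0.87 over 15. The 15 included M756, whose library also held Hox counts.

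Npas2, the partner of BMAL1 that is prominent in forebrain, ran in cortex from 23.9 to 42.2 CPM in the high mice and from 38.7 to 56.5 CPM in the low mice, with medians of 34.3 and 49.4 CPM. Its log2 fold change was -0.50 in cortex (SE 0.12, adjusted p = 0.35, edgeR) and 0.016 in striatum (adjusted p = 0.99, edgeR), and it differed by -0.48 in cerebellum, where it was low in both classes (medians 3.40 and 5.91 CPM). Clock differed by -0.72 in cerebellum, with a correlation with Dbp of -0.76, but had -0.075 in cortex and 0.29 in striatum (adjusted p = 0.90 and 0.48, edgeR). With an offset for the GC content and length of the transcripts, the cerebellum difference of Clock was -0.30. Rora, a receptor that activates Arntl, had -0.54, 0.17 and 0.78 in the order cerebellum, cortex and striatum, and the last had a standard error of 0.51. Its cerebellum difference was -0.12 with the same offset and -0.34 without M755. Rorb had 0.48 in striatum (SE 0.18, adjusted p = 0.45, edgeR), -0.052 in cerebellum and 0.16 in cortex. Arntl2 had -0.12, 0.067 and 0.20. Without M755 the cerebellum differences of Rorb and Arntl2 were -0.38 and -0.32. Over the 7 genes of the limb, the median was -0.41 in cerebellum, 0.067 in cortex and 0.20 in striatum. The repressing limb had 0.19, 0.040 and 0.24, so the medians of the 2 limbs were not opposite in cortex or striatum. Of the 7 genes, 2 were lower at the unadjusted level in cortex, where 5.67% of all genes were. Only 1, Rorb, was higher in striatum, where 6.15% of all genes were. In striatum no clock gene of the 31 had groups that did not overlap, where 0.226% of all genes were higher and 0.205% lower without overlap.

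Among the D-box factors, Tef, the nearest relative of Dbp in this list, had a log2 difference of 0.32 in cerebellum and log2 fold changes of 0.14 in cortex and 0.33 in striatum (SE 0.11, adjusted p = 0.45, edgeR). In striatum it ran from 415 to 573 CPM in the high mice and from 313 to 460 CPM in the low mice. Hlf had 0.065, 0.016 and 0.47, with 146 to 232 CPM against 84.7 to 170 CPM in striatum (SE 0.16, adjusted p = 0.45, edgeR). Nfil3, which binds the same D-boxes as a repressor, had -0.64 in striatum (SE 0.23, adjusted p = 0.45, edgeR), where the high mice ran from 7.71 to 11.1 CPM and the low mice from 8.32 to 24.99 CPM. It had -0.28 in cortex and 0.041 in cerebellum. Without M755 the cerebellum differences of Hlf and Nfil3 were 0.15 and 0.20. In striatum Dbp, Tef and Hlf had positive values and Nfil3 a negative one, and Dbp did not pass the unadjusted level there.

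Of the 6 output genes of the clock, 0 passed the unadjusted level in cortex or striatum. Usp2, a deubiquitinase with a strong daily rhythm in many tissues, had 0.34, 0.18 and 0.15 in cerebellum, cortex and striatum (adjusted p = 0.55 in both tested regions, edgeR). In cerebellum it was at 23.1 CPM in M755, without which the difference was 0.55. Without mice M754, M755 and M761 its classes did not overlap, as for 2.08% of all genes on the high side. Por, cytochrome P450 reductase, differed by 0.40 in cerebellum, with -0.049 and -0.16 in the other regions. Nampt, of NAD synthesis, differed by -0.29 in cerebellum, with 0.088 and 0.16. Wee1, a cell cycle kinase, had -0.14, -0.22 and 0.27, Pdxk -0.011, -0.19 and -0.0075, and Gabarapl1 0.18, 0.0019 and -0.030. Without M755 the cerebellum differences of Wee1, Pdxk and Gabarapl1 were -0.26, -0.047 and 0.022.

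The difference between the 2 tested regions was itself tested. Of 18076 genes tested in both, 0 had a high-to-low difference that differed between striatum and cortex at an adjusted p under 0.05 (edgeR, interaction term), where 2484 did at the unadjusted level. With the mouse as a replicate block, which uses that both libraries came from 1 animal, the counts were 0 and 2555. For Dbp the difference of striatum from cortex was -0.18 (SE 0.29, adjusted p = 0.81, edgeR) and for Npas2 0.53 (SE 0.26, adjusted p = 0.37, edgeR). Wee1 was the only clock gene past the unadjusted level without the block (0.50, SE 0.19, adjusted p = 0.29, edgeR). With the block, Per2, Fbxl21, Wee1 and Npas2 were past it, all with an adjusted p of 0.32 (edgeR). The contrast between a cortex with Arntl and Npas2 lower and a striatum with Per2, Per3 and Nr1d2 higher was thus not shown to be a difference between the regions.

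Of the 15 genes in a list of glucocorticoid-responsive genes, the leading member by its difference in cerebellum was Zbtb16 (ENSMUSG00000066687, minus strand of chromosome 9, 48654297 to 48836222), which encodes the zinc finger factor PLZF. In cerebellum it ran from 1.61 to 10.7 CPM in the high class (median 7.96) and from 17.3 to 58.7 CPM in the low class (median 19.1), with a log2 difference of -2.004 and no overlap. Of all genes there, 0.0881% were lower and 0.143% higher without overlap. The 2 mice with the highest Dbp, M759 and M758, had the least Zbtb16 with 1.61 and 3.23 CPM. With the ribosomal protein share as a covariate the difference was -0.98. In cortex Zbtb16 ran from 20.2 to 46.2 CPM in the high mice (median 22.7) and from 37.6 to 95.3 CPM in the low mice (median 53.5), with a log2 fold change of -1.06 (SE 0.26, adjusted p = 0.37, edgeR). In striatum it ran from 7.34 to 11.8 CPM (median 8.61) against 9.48 to 36.3 CPM (median 16.3), with a log2 fold change of -1.13 (SE 0.28, adjusted p = 0.45, edgeR).

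Plin4, a lipid droplet coat protein gene and the other leading member of this list, had -1.02, -0.75 and -0.94 in cerebellum, cortex and striatum, with standard errors of 0.53 and 0.61 in the tested regions. Further members were picked after their values were seen. Hif3a, an inhibitory subunit of the hypoxia-inducible factors, had -0.83, -0.62 and -0.54 (SE 0.18 in each tested region), Cdkn1a, which encodes the cell cycle inhibitor p21, had -0.59, -0.80 and -0.97, and Fkbp5, a chaperone of the glucocorticoid receptor that the receptor induces, had -0.47, -0.51 and -0.42. In cortex Hif3a ran from 8.71 to 19.1 CPM in the high mice and from 15.5 to 25.04 CPM in the low mice, and Fkbp5 from 23.3 to 41.2 CPM and from 31.4 to 65.0 CPM. With the ribosomal protein share as a covariate, the cerebellum differences were -0.24 for Plin4, -0.032 for Hif3a, -0.47 for Cdkn1a and -0.049 for Fkbp5. Adjusted p-values of Hif3a, Cdkn1a and Fkbp5 were 0.43 in cortex, and in striatum 0.45 (edgeR). In cortex 5 of 15 members were lower at the unadjusted level (Zbtb16, Hif3a, Cdkn1a, Fkbp5 and Klf9) and 0 higher, and in striatum 6 were lower (Zbtb16, Hif3a, Cdkn1a, Fkbp5, Mt1 and Mt2) and 0 higher. Of all genes, 5.67% were lower and 4.25% higher at that level in cortex, and 4.56% and 6.15% in striatum. The other members differed among themselves. Mt1 and Mt2, the metallothioneins, had 0.31 and 0.26 in cortex and -0.37 and -0.45 in striatum, Klf9 had -0.32 and 0.26, and Tsc22d3 and Sgk1, which the same receptor induces, had values between -0.30 and 0.078 in these 2 regions. The list had a median of -0.20 (cerebellum), -0.12 (cortex) and -0.37 (striatum). In cerebellum it was -0.085 without M755 and 0.041 with the ribosomal protein share as a covariate.

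Genes that respond to neuronal activity and to temperature formed 2 further lists. Of 13 immediate early genes, 11 were tested in cerebellum and 13 in the other regions, with medians of 0.33, -0.086 and 0.072. Their leading members in cerebellum were Ier2 (0.57, with 0.25 in cortex and 0.012 in striatum) and Fosb (0.54, -0.38 and -0.19). At the unadjusted level 1 was lower in cortex, Egr3 (-0.81, SE 0.23, adjusted p = 0.43, edgeR), and 1 higher in striatum, Dusp1 (0.36, SE 0.096, adjusted p = 0.45, edgeR). Of 10 cold-inducible and heat shock genes, with medians of 0.046, -0.045 and -0.18, the leading members were Hspb1 (0.61, 0.12 and -0.30) and Hspa1a (0.30, 0.013 and -0.21), and Hspa1a had 0.76 in cerebellum without M754, M755 and M761. Cirbp was higher (0.19) and Hsph1 lower (-0.18) at the unadjusted level in cortex, and 0 of 10 in striatum. Of all genes, 4.25% were higher and 5.67% lower at that level in cortex, and 6.15% and 4.56% in striatum.

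Outside the clock lists, the genes most like Dbp over the 18 cerebellum libraries were sought among 11713 genes with at least 5 CPM, by Pearson's r of log2 CPM. The 10 with the highest r (0.80 to 0.89) were Rufy1, Ephx1, Galns, Plekho2, Fcgrt, Anxa7, Gstm1, Azin2, Ifnar2 and Trim8. The 10 with the lowest r (-0.90 to -0.83) were Krt222, Hspa4, Ccny, Ears2, Rabep1, Rnf219, Rab14, Mafg, Daam2 and Eif4g2. Without mice M754, M755 and M761 the values were 0.78 to 0.91 and -0.89 to -0.81 over 15 libraries. These correlations are a description of the libraries that chose the genes. Rufy1, an endosomal adaptor, ran from 37.0 to 45.7 CPM in the high and from 31.8 to 37.1 CPM in the low class, and Krt222, a keratin-like gene, from 58.9 to 70.7 and from 71.6 to 79.3 CPM. Ephx1 and Gstm1, of the detoxification of epoxides and electrophiles, differed by 0.44 and 0.41 and Fcgrt, the neonatal Fc receptor, by 0.52.

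These genes were checked in the regions that had no part in their choice. Of the 10 on the high side, 8 had a positive log2 fold change in cortex and 5 in striatum, and 1 passed the unadjusted level in each, Plekho2 (0.38 and 0.34, adjusted p = 0.43 and 0.46, edgeR). Of the 10 on the low side, 9 had a negative value in cortex and 5 in striatum. In cortex Daam2 (-0.29, adjusted p = 0.43, edgeR) passed the unadjusted level, and in striatum Ccny did with the opposite sign (0.22, adjusted p = 0.45, edgeR). The median log2 fold change over all genes was 0.0048 in cortex and -0.035 in striatum. At the unadjusted level 4.25% of all genes were higher and 5.67% lower in cortex, and 6.15% and 4.56% in striatum. Genes of like transcript length and GC content were not compared.

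Transcript length and GC content differed between genes on either side of Dbp in cerebellum. The 1992 genes with r above 0.5 had a median transcript length of 2050.5 bases and a GC content of 54.5%, the 2183 with r below -0.5 had 5515 bases and 44.0%, and the 7537 between had 3602.5 bases and 49.8%, each median over the genes with an annotated transcript. The Dbp transcript has 1837 bases and 61.6% GC. Ribosomal protein genes took 0.887% to 1.52% of the gene counts in the high class (median 1.31%) and 0.643% to 1.10% in the low class (median 0.888%). With an offset for GC content and length the difference of Dbp was 0.80 and that of Ciart 0.61, and with the ribosomal protein share as a covariate 0.82 and 0.84. The part of these shares in the cerebellum differences was not tested otherwise.

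**Figure D5:**
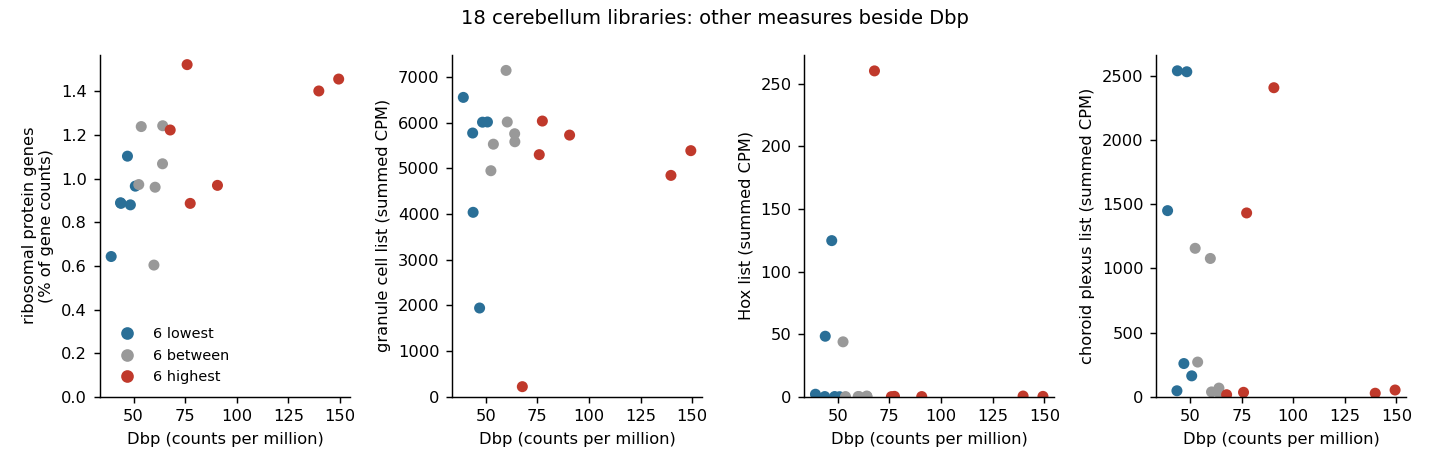
Share of ribosomal protein genes (% of gene counts) and summed CPM of the granule cell, Hox and choroid plexus lists (y axes) against Dbp (x axis, raw CPM) in 18 cerebellum libraries. The high library of M755 lies apart with 222 CPM of granule cell genes and 260 CPM of Hox genes, and the ribosomal protein share was 0.643% to 1.10% in the low and 0.887% to 1.52% in the high class.

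Lists that mark cell types showed what else differed between the mice. In cortex the 6 choroid plexus genes summed to 75.4 to 1248 CPM in the high mice (median 496) and 13.7 to 80.1 CPM in the low mice (median 45.4). Of the 6, 5 were higher at the unadjusted level, beside 4.25% of all genes. Kcnj13 and Kl, the leading members of this list by the difference in cerebellum, had 2.28 and 1.74 in cortex (adjusted p = 0.35 and 0.41, edgeR) and -0.90 and -0.86 in cerebellum. Ttr and Folr1, named after their values were seen, had larger values in cortex, 4.38 (SE 1.02) and 3.42 (SE 0.70). Cerebellar genes were also uneven in cortex. Gabra6, of granule cells, ran there from 0.380 to 7.67 CPM in the high and from 0.155 to 0.589 CPM in the low mice, beside a median of 710 CPM in the high cerebellum libraries, and Pcp2, of Purkinje cells, from 0.304 to 2.99 and from 0.0938 to 0.331 CPM. Without M755, Gabra6, Pcp2 and Cbln3 were the 3 genes called in cortex (log2 fold changes 3.67, 3.27 and 3.00, adjusted p = 0.0078 for 2 of them and 0.0117, edgeR). The granule list summed to at most 3.12% of its cerebellum median in the high and 3.17% in the low cortex libraries. Its median log2 fold change in cortex was 0.62, so these near-equal sums do not describe its members. At the unadjusted level 4 of its 8 genes were higher and 1 lower, beside 4.25% and 5.67% of all genes. The part of these tissues in the cortex differences was not tested, and in bulk tissue fewer cells of a type and less RNA per cell cannot be told apart.

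In cerebellum the medians of the lists were -0.18 for granule cells (leading members Fat2 -0.36 and Reln -0.30), -0.086 for Purkinje cells (Pcp2 0.58, Itpr1 -0.42), 0.41 for oligodendrocytes (Mog 0.52, Mag 0.48), 0.069 for astrocytes and Bergmann glia (Gfap 1.10, Aldh1l1 0.37) and 0.27 for microglia (C1qa 0.52, Tmem119 0.37). They were 0.063 for endothelium (Cldn5 0.27, Slc2a1 0.13), -0.79 for choroid plexus, -0.017 for meninges (Slc6a13 0.18, Lum -0.10) and 0.61 for erythrocytes (Hba-a2 0.79, Hbb-bs 0.61). Cortical neuron genes had a median of -0.042 (Neurod6 -0.31, Tbr1 0.15) and striatal neuron genes 0.095 (Ppp1r1b and Drd2 0.28), and 0 of 8 Hox genes passed the filter. Many of these changed in sign or size when M755 alone was left out. Without it the median was 0.073 for granule cells (Fat2 -0.10, Reln -0.13, and 6 of 8 genes positive against 1 of 8 with it) and 0.12 for Purkinje cells (Itpr1 -0.17). It was -0.22 for oligodendrocytes (Mog -0.13, Mag -0.11, and 0 of 6 positive against 6 of 6), -0.097 for microglia (Tmem119 0.13, C1qa 0.31) and -0.53 for striatal neurons (Drd2 -2.45, Ppp1r1b 0.49). The medians of endothelium, meninges and cortical neurons also changed sign, to -0.0072, 0.031 and 0.017. Gfap had 0.016, Slc2a1 0.060, Slc6a13 0.34 and Lum 0.024. The medians of choroid plexus and erythrocytes kept their sign, at -0.53 and 0.33 (Hbb-bs 0.35). Dbp, Ciart and Bhlhe41 kept 1.19, 0.88 and 0.26 without M755. This left M754 and M761, which also held Hox counts, in the low class. With M754, M755 and M761 all left out, the medians were -0.19 for granule cells (1 of 8 positive) and -0.12 for Purkinje cells. They were 0.32 for oligodendrocytes (6 of 6 positive), 0.16 for microglia, 0.12 for endothelium and -0.052 for cortical neurons. These had the signs of the full set, while meninges (0.19) and striatal neurons (-0.26) did not. In cortex and striatum the medians over the lists were within -0.40 and 0.62 but for choroid plexus in cortex (2.02).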

How the data were processed

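Poly(A) RNA of cerebellum, cortex and striatum from 18 mice gave 54 libraries. The authors aligned the reads with STAR (2.4.2) after FastQC (0.10.1), as the submitters' processing notes name these tools, and deposited 1 table of raw counts per Ensembl gene (47069 genes and 92 spike-in RNAs), with no normalisation. Which strand column was counted is not given in the sources used here, so overlapping and antisense genes are uncertain. Gene names, transcripts and promoters came from reference tables, and 46488 genes matched a symbol.

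Mice were ranked by the cerebellar Dbp count and split into classes of 6. The members and the gene lists were chosen with earlier results of these data known. A gene was kept in a region where 8 or more of its 18 libraries had over 4 counts. Cortex and striatum were fitted separately with edgeR 4.0.16 (TMM, robust quasi-likelihood test, R 4.3.3) and Benjamini-Hochberg adjustment, and a call needed an adjusted p under 0.05. Standard errors were the log2 fold change over the square root of F. DESeq2 1.42.0 and surrogate variables from sva 3.50.0 were alternatives. Log2 CPM used a prior count of 2. Single values were compared by exact permutation, and correlations by 100000 permutations. The difference between cortex and striatum was an interaction term, fitted without and with the mouse as a block. The mouse number names the same animal in each region, and the deviations of a mouse's 2 libraries had a median correlation of 0.16 over 12 mice, against -0.014 over 132 pairs of different mice. None of the 219 pairs of libraries of 1 region and genotype agreed within sampling noise (lowest chi-square per gene 8.89).

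On simulated counts, the test recovered 88% of genes changed 2-fold and 49% of those changed 1.5-fold in cortex (18661 genes), and 65% and 29% in striatum (18546 genes). False calls were 9 in cortex and 3 in striatum. In each region 100 genes above a minimum level were changed at each fold, and each gene was drawn independently. Recovery with only a few changed genes, or with litter or composition differences, was not simulated. Named were the clock genes (2 of the 31 are counted but not reported here), the 10 genes with the highest and the 10 with the lowest correlation with Dbp in cerebellum, genes called in cortex or striatum, and the 2 members of each other list with the largest absolute difference in cerebellum. Gabra6, Cbln3, Hif3a, Cdkn1a, Fkbp5, Klf9, Mt1, Mt2, Tsc22d3, Sgk1, Egr3, Dusp1, Cirbp, Hsph1, Ttr and Folr1 were named after their values were seen. Counting error at these depths is small beside the spread between mice.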

Additional observations from a re-analysis of the deposited data

Results flagged for a closer look

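Within the classes of 6 mice, 104 groups were screened for 1 value far from the other 5 by Dixon's gap over the range at its 95% limit, and 9 were found, where chance gives about 1 in 20. In cerebellum 6 of the 9 were M755 in the high class: 222 CPM of granule cell genes, 461 CPM of Purkinje cell genes, 32003 CPM of oligodendrocyte genes and 260 CPM of Hox genes, with Arntl at 14.6 CPM (38.3 to 52.7 CPM in the other high libraries) and Nfil3 at 7.98 CPM (17.5 to 27.5 CPM). M766, also of the high class, had 55.4 CPM of Arntl in striatum (27.9 to 32.2 CPM in the others) and 52.7 CPM of Per3 in cortex (80.2 to 102 CPM). In the low class, M761 had 37.8 CPM of Bhlhe41 in cortex (29.7 to 32.5 CPM). The causes were not tested.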

How the results depend on the processing

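edgeR called 0 genes in either region. In cortex DESeq2 called 66 genes, 5 of them clock genes, and Dbp with 0.65 (adjusted p = 0.025, range 0.025 to 1.0 over the alternatives). Litter as a covariate called 1 gene, the clock gene Ciart, and cerebellar Dbp as a continuous term 6 (Cnpy1, Pmch, Cbln3, Gabra6, Fat2 and Abhd12b). With 4 surrogate variables 2 were called, Gm29650 and Uty. Their log2 fold changes of -23.7 and -29.9 are too extreme to be read as sizes. Leaving out 1 mouse gave 0 to 3 genes (3 without M755) and 0 to 1 clock gene (Ciart without M766). Clock genes at the unadjusted level, 5 at first, were 2 with 9 against 9 mice, 9 with the GC and length offset, with litter or in females alone, 8 with the ribosomal protein share, 11 with surrogate variables and 5 to 11 without 1 mouse (11 without M766). Counts over all 18661 genes moved as well. From 1852 at first they went to 1020 with 9 against 9 mice, 1545 with the offset and 1227 with litter. They were 650 in females alone, 511 with the ribosomal protein share, 2183 with surrogate variables and 1609 without M766. In striatum DESeq2 called 57 genes and surrogate variables 287, each with 3 clock genes. Clock genes at the unadjusted level, 10 at first, were 18 with surrogate variables and 6 in WT mice alone. The counts over all 18546 striatum genes moved in the same direction. At first 1141 were higher and 845 lower at that level. With surrogate variables these were 2146 and 1690, and in WT mice alone 482 and 274. Without the striatum libraries labelled rep (M751 and M752), Dbp was 0.84 against 0.46. The adjusted p of Dbp ran from 0.068 to 0.94 in striatum. Cirbp in cortex changed sign with 9 against 9 mice (-0.026). Ciart, Bhlhe41, Zbtb16 and Dbp kept their direction in both regions under every alternative run. With the mouse as a replicate block, the interaction gave 0 called genes and 2555 at the unadjusted level, against 0 and 2484, and changed no call. Mbd5+/GT mice alone (4 against 1) and males alone (1 against 3) were not run. The GC and length offset, the ribosomal protein share and leaving out M754, M755 and M761 together were chosen after seeing the data. The causes of these shifts were not tested.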
